A study of Homo sapiens with 18 samples.

Results

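THP1 and MV4-11 are established human acute myeloid leukemia (AML) cell lines that both carry a rearrangement of KMT2A, and the transcriptomes of the untreated lines were compared here: 3 THP1 libraries against 3 MV4-11 libraries, all from cells given the solvent DMSO only, out of 18 libraries in the series. Genes whose mean level reached 1 TPM (the share of transcripts in a library, per 1e6) in either cell line were kept, which left 14850 of 45372 genes in the table. The other 12 libraries came from the same lines after 8 h or 24 h of 50 nM IACS-010759 (IACS), an inhibitor of mitochondrial complex I. The replicates are separate cultures of 1 line each, so the error of every value below is the spread between cultures of a line and not between patients, and each line stands for itself only.

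In KMT2A-rearranged leukemia the amino-terminal part of the KMT2A histone methyltransferase is fused to a partner protein that recruits elongation factors and DOT1L, and the fusion holds HOXA genes, MEIS1 and other progenitor genes in an active state. MV4-11 carries the AFF1 partner and an internal tandem duplication of FLT3, the receptor tyrosine kinase that signals through STAT5. THP1 carries the MLLT3 partner and mutated NRAS, and both lines have monocytic features. What 2 such lines share and where they differ at rest is the starting point for any comparison of their response to a drug.

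The 6 libraries held approximately 22840000 to 29180000 reads each, as estimated from the TPM values, and 1 read on a transcript of 1 kb was worth 0.0767 to 0.115 TPM. TPM values were rescaled between libraries by the median of ratios, with factors from 0.856 to 1.15, and are given below as rescaled TPM. Correlations between replicate libraries over the tested genes were 0.986 to 0.993 on the log2 scale, against 0.858 to 0.861 between the lines. No pair of replicates was identical, and every pair differed by more than counting noise. In THP1, replicate 3 stood apart from the other two (chi-square per degree of freedom 33.2 and 22.3, against 6.39 between those), and in MV4-11 the values were 9.30 to 20.1. The RNAs of the signal recognition particle (RN7SL1 and RN7SL2), RN7SK, RNase MRP and RNase P, 5 noncoding genes in all, took 46.3% to 55.8% of all TPM in these libraries.

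The cell lines differed at many genes. A gene was called where the log2 difference, THP1 minus MV4-11, on the scale of log2(rescaled TPM + 1) went beyond a 1.5-fold change and the Benjamini-Hochberg adjusted p of limma was under 0.05. By that rule 3075 genes (20.7% of those tested) were higher and 2736 (18.4%) were lower in THP1, or 39.1% in all, with a median difference over all tested genes of -0.0025. A gene that reached 1 TPM in 1 line only had almost to differ to enter the test, and this held for 1549 genes in THP1 (1246 called higher) and 817 in MV4-11 (567 called lower). Among the 12484 genes at 1 TPM or more in both lines, 1829 (14.7%) were higher and 2169 (17.4%) lower in THP1. Differences beyond 2 on the log2 scale were called for 628 genes higher and 246 genes lower in THP1. The 6 libraries separated without overlap for 71.9% of all tested genes, so that separation by itself said little about any single gene. The added 1 TPM makes these log2 differences understate the change of genes at low levels.

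**Figure D1:**
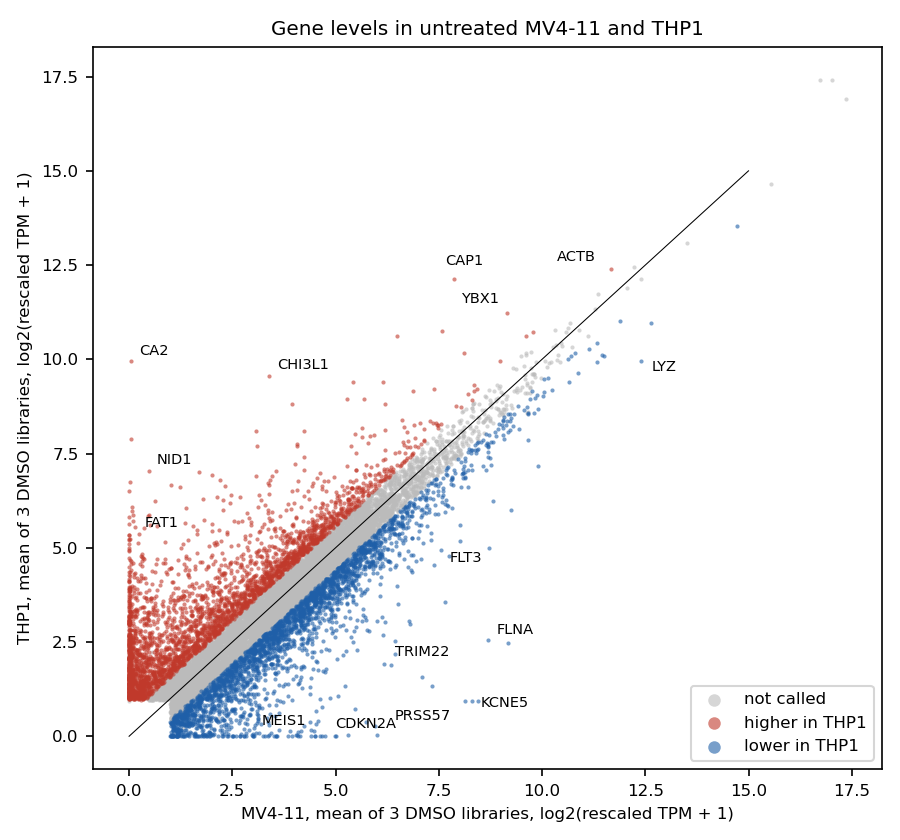
Mean level of each tested gene in the 3 MV4-11 DMSO libraries (x axis) and the 3 THP1 DMSO libraries (y axis), both as log2(rescaled TPM + 1). Red points are the 3075 genes called higher and blue points the 2736 genes called lower in THP1, the line marks equal levels, and the genes along the left and lower edges are near or at 0 in 1 of the lines.

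The genes furthest apart were nearly silent in one of the lines. CA2, a cytosolic carbonic anhydrase, had 900.3, 897 and 1163 TPM in the THP1 libraries and 0.0462, 0 and 0.0409 TPM in the MV4-11 libraries. NID1, a basement membrane glycoprotein, had 114, 132 and 148 TPM in THP1 against 0.303 to 0.474 TPM in MV4-11, a log2 difference of 6.57 (SE 0.104, limma adjusted p = 1.54e-08). CHI3L1, a secreted chitinase-like protein of macrophages, was present in both lines, at 625, 688 and 961 TPM in THP1 and 8.26, 7.35 and 12.8 TPM in MV4-11. These genes were picked for a large difference and no overlap between the lines, so neither their separation nor their small p is further evidence.

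The other genes of this size in THP1 included the atypical cadherin FAT1 (62.3 ± 0.48 TPM, SD, n = 3), the cyclophilin PPIC (67.3 ± 8.29 TPM), the retinol dehydrogenase DHRS9 (101 ± 10.7 TPM), the leukocyte protease inhibitor SLPI (74.6 ± 7.15 TPM) and the noncoding RNA LINC01388 (57.5 ± 5.31 TPM). Their means in MV4-11 lay between 0.0481 TPM for FAT1 and 1.03 TPM for DHRS9. RUBCNL, a regulator of autophagosome maturation, and ZNF521, a zinc finger factor of early hematopoietic cells, were listed at 0 in every MV4-11 library and at 90.6 ± 6.67 and 55.2 ± 1.70 TPM (SD, n = 3) in THP1. The cancer-testis antigens XAGE1A and XAGE1B were also high in THP1, but the 250 bases before their starts were identical at 250 of 250 positions. Their reads could be split between the copies, and the THP1 libraries divided them unevenly (332, 184 and 197 TPM for XAGE1A against 34.2, 133 and 150 TPM for XAGE1B).

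In the opposite direction, KCNE5, an accessory subunit of voltage-gated potassium channels, had 280.1, 323 and 339 TPM in MV4-11 and 1.22, 0.865 and 0.700 TPM in THP1, 338 times less in the mean. PRSS57, a serine protease of neutrophil primary granules, had 224, 284 and 338 TPM in MV4-11 and 0.459 to 1.42 TPM in THP1. FLNA, the actin crosslinker filamin A, had 361, 431 and 445 TPM in MV4-11 against 4.18, 4.74 and 5.55 TPM in THP1, a log2 difference of -6.15 (SE 0.112, limma adjusted p = 2.32e-08). The same rule picked these genes, so their separation was a condition and not a result.

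FLNA and its neighbour on the X chromosome EMD (chrX:154379273-154381574, GRCh38), which encodes the nuclear envelope protein emerin, were low together: EMD was at 19.4, 21.4 and 23.9 TPM in MV4-11 and listed at 0 in all THP1 libraries. PITX1, a homeodomain factor, and the adjacent antisense transcript C5orf66-AS1 on chromosome 5 likewise fell together, with PITX1 at 160 ± 20.3 TPM (SD, n = 3) in MV4-11 and 1.51 ± 0.473 TPM in THP1, and C5orf66-AS1 at 31.1 ± 5.11 TPM and at 0. The remaining genes of this group were FGL2, a fibrinogen-like immune regulator (136 against 1.99 TPM), the actin-associated ZNF185 (52.2 against 0.305 TPM), the small GTPase RAB34 (38.7 against 0.0302 TPM), the membrane protein TMEM233 (30.9 against 0.0115 TPM), the meiotic protein HORMAD1 (43.1 against 0.640 TPM) and the noncoding RNA LINC00599 (63.0 against 0.0188 TPM). In all, 220 genes called higher in THP1 were listed at 0 in every MV4-11 library, and 57 genes called lower were listed at 0 in every THP1 library.

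The promoters of 6 of these genes are shown because the on and off states were found both at promoters dense in CpG and at promoters with almost none. Each sequence is the 250 bases before the gene's start (RefSeq, GRCh38.p14, 5′ to 3′ on the gene's strand), with each CpG in capitals.
NID1, chr1:236065091-236065340, minus strand: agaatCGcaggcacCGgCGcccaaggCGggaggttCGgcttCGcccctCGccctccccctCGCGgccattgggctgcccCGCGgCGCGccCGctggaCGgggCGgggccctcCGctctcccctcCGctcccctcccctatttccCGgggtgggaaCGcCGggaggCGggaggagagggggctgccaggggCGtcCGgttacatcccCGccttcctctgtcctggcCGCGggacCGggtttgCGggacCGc
FAT1, chr4:186726697-186726946, minus strand: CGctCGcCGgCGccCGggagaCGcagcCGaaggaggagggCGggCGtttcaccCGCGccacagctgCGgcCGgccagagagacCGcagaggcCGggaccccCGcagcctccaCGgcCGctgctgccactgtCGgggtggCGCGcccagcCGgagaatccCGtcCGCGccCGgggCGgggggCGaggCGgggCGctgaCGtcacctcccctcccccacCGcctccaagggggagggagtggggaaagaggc
DHRS9, chr2:169066827-169067076, plus strand: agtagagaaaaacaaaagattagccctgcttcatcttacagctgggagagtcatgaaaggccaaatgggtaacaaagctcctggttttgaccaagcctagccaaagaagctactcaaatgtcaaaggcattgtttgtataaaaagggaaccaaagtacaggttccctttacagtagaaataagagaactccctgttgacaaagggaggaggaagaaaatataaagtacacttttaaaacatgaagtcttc
KCNE5, chrX:109625173-109625422, minus strand: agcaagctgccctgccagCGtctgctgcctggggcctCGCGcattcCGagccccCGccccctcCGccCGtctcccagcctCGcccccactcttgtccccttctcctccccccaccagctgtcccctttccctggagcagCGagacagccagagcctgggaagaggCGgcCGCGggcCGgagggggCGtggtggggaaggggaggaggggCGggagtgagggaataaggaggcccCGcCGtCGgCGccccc
FLNA, chrX:154374635-154374884, minus strand: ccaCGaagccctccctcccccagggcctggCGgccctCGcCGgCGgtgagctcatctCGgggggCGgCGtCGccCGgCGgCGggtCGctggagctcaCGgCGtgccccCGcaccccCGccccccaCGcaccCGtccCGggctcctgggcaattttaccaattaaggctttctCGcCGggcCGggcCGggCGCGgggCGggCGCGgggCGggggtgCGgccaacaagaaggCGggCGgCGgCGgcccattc
FGL2, chr7:77199820-77200069, minus strand: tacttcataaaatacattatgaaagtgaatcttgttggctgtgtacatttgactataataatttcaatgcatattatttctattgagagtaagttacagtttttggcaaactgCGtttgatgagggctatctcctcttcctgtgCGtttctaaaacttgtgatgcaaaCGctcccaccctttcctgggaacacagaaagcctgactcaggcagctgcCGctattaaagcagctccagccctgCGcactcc

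NID1, FAT1 and FLNA held 30, 32 and 35 CpG in these 250 bases and KCNE5 held 19, whereas FGL2 held 5 and DHRS9 held 0. Promoters of 300 bases (250 before and 50 after the start) were found for 10167 of the 14850 tested genes (68.5%). Their median number of CpG was 25 for genes called higher, 25 for genes called lower and 27 for genes not called, and the median GC content was 65.3%, 64.7% and 65.0%. Genes that were called lower and lay under 1 TPM in THP1 had a median of 17 CpG and under 5 CpG in 19.3% of promoters, against 6.21% over all tested promoters. The matching share for genes that were called higher and lay under 1 TPM in MV4-11 was 12%.

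Both strands were also searched for a few short motifs. TGACTCA, the AP-1 site, was in 6.17% of the 243 promoters of genes lower and under 1 TPM in THP1, RAB34 among them, and in 2.81% of all tested promoters. FGL2 also held the site but is not among the 243, since it was above 1 TPM in both lines. TGTGGT, the core of the RUNX site, was in 16.0% of the 243 promoters against 9.49% of all tested promoters, and TATAAA, added with the results in view, in 13.6% against 5.85%. In the 757 promoters of genes higher in THP1 and under 1 TPM in MV4-11 these 3 motifs were in 3.04%, 8.85% and 7.13%, and in the 1567 promoters of genes lower in THP1 at 1 TPM or more in both lines they were in 2.55%, 10.1% and 6.0%. GGAA, the core of the ETS site, was in 93.0% against 95.4%, and TTGCGCAA, a C/EBP site, in none of those 243 promoters and in 0.216% of all. The genes of the 243 promoters entered the test through MV4-11 only. The 243 promoters had a median GC content of 61.7%, against 65.0% over all tested promoters. Whether the motif shares go with that composition was not tested. These motifs are short and may overlap other motifs, and each share is a description of letters in the window.

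Genes at the lesions of the 2 lines showed some of the clearest differences. Of 12 such genes, 2 were higher, 7 were lower and 3 were not called (75% called, against 39.1% of all tested genes), with a median difference of -1.09. FLT3 had 192, 189 and 180.3 TPM in MV4-11 and 31.7, 31.0 and 27.1 TPM in THP1 (log2 difference -2.61, SE 0.0749, adjusted p = 1.46e-07 by limma). For FLT3 the libraries of the 2 lines did not overlap, and the gene remained well above the 1 TPM limit in THP1.

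CDKN2A, which encodes the cell cycle inhibitors p16 and p14ARF, had 24.1, 27.8 and 25.3 TPM in MV4-11 and was listed at 0 in every THP1 library. It lay in a row of 5 tested neighbours on chromosome 9, from KLHL9 through MTAP, CDKN2A and CDKN2B-AS1 to CDKN2B (chr9:21329665-22009305), that were all listed at 0 in THP1. In MV4-11 the ubiquitin ligase adaptor KLHL9 had 16.5 ± 0.507 TPM (SD, n = 3), the methionine salvage enzyme MTAP 13.5 ± 0.856 TPM and CDKN2B 1.71 ± 0.188 TPM. The tested genes on either side, HACD4 and ELAVL2, were present in THP1 at 8.47 and 2.64 TPM. On the X chromosome the neighbours FUNDC1, a mitophagy receptor, and KDM6A, a histone H3 lysine 27 demethylase, had 20.3 and 15.5 TPM in MV4-11 and 0 and 0.0143 TPM in THP1; that pair was picked out after its values were seen.

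NRAS was higher in THP1, with 91.1, 85.9 and 104 TPM against 43.6 to 44.1 TPM. It lies on chromosome 1, where 43.0% of the tested genes were higher in THP1, in a run of neighbours called higher. KMT2A itself was 12.3 ± 0.299 TPM (SD, n = 3) in THP1 and 21.7 ± 2.44 TPM in MV4-11, a log2 difference of -0.76. Of the fusion partners, MLLT3 had 2.43 to 2.84 TPM in THP1 and 0.132 to 0.355 TPM in MV4-11, and AFF1 overlapped between the lines (57.8 ± 1.76 and 54.5 ± 6.54 TPM). These values do not separate reads of the fusion transcripts from reads of the normal alleles. DDX39B and CSNK2A1, the partners of another fusion known in THP1, were not called, at -0.36 and -0.16.

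**Figure D2:**
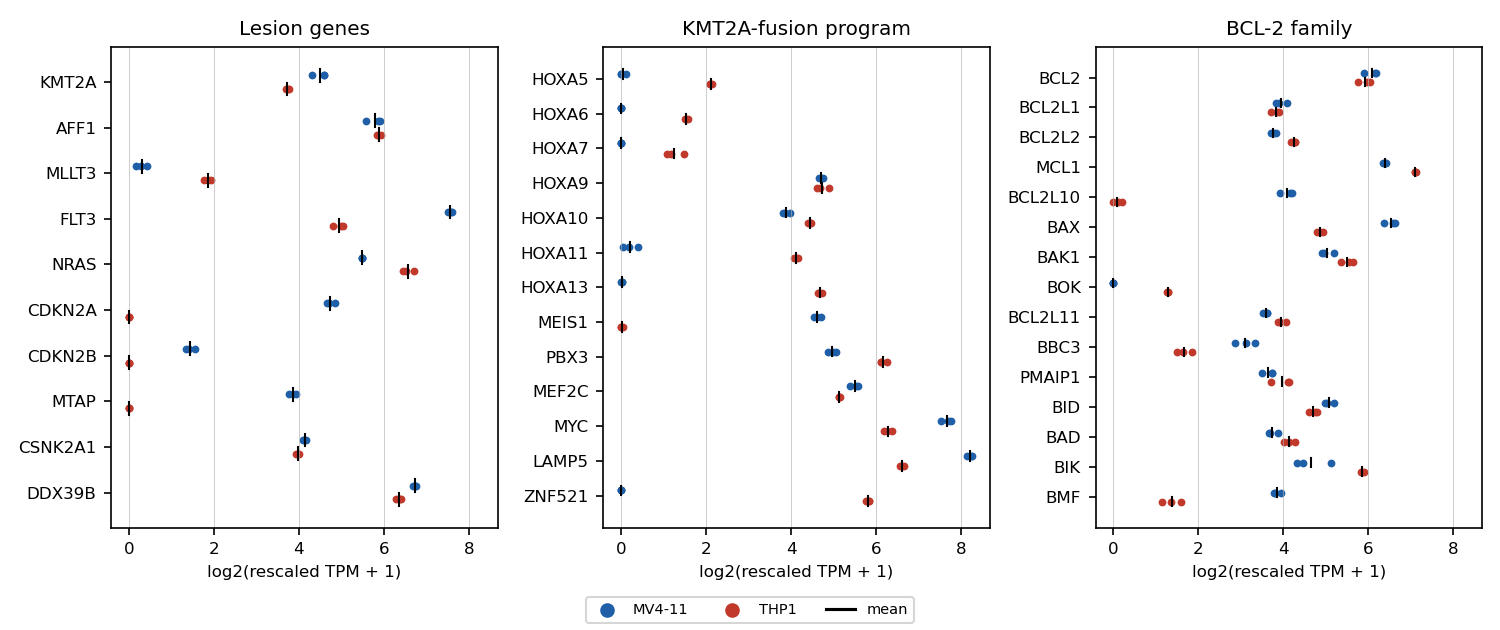
Levels of lesion genes, genes of the KMT2A-fusion program and BCL-2 family genes as log2(rescaled TPM + 1), with 1 point per DMSO library (3 per line) and a bar at the mean. CDKN2A, MEIS1 and BCL2L10 are at or near 0 in THP1 only, HOXA13 and ZNF521 are near 0 in MV4-11, and HOXA9 and BCL2 overlap.

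The genes that KMT2A fusions are known to hold active were not alike in the lines. Of 34 such genes 27 were tested, and 12 were higher, 3 lower and 12 not called (55.6% called, against 39.1% of all tested genes), with a median of 0.31. HOXA9, the homeodomain factor central to this leukemia, had 28.9, 24.7 and 23.3 TPM in THP1 and 24.04, 26 and 24.98 TPM in MV4-11 and was not called (log2 difference 0.03, SE 0.087). HOXA10 had 20.7 ± 0.626 TPM (SD, n = 3) in THP1 and 13.8 ± 0.797 TPM in MV4-11, and at 0.55 it stayed under the fold threshold.

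The genes on either side of that pair within the HOXA cluster were detected in THP1 and nearly absent from MV4-11. HOXA13 had 25.5, 24.4 and 23.7 TPM in THP1 and at most 0.0183 TPM in MV4-11. HOXA11 had 15.74 to 16.99 TPM in THP1 and 0.0373 to 0.321 TPM in MV4-11. HOXA5 had 3.26 to 3.42 TPM in THP1 and at most 0.0953 TPM in MV4-11, and HOXA6 and HOXA7 were listed at 0 in MV4-11 and at 1.83 to 2.01 and 1.12 to 1.80 TPM in THP1. The library preparation is not stated to keep strand, so reads of the antisense transcripts within this cluster cannot be told apart from those of the HOXA genes.

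MEIS1, the DNA-binding partner of HOXA9, went the other way: 25.2, 23.5 and 22.2 TPM in MV4-11 and 0 to 0.0269 TPM in THP1. PBX3, the other cofactor, was higher in THP1 (68.3, 68.7 and 75.0 against 28.4 to 32.4 TPM, log2 difference 1.19, SE 0.0716). MYC had 184.5, 206 and 215 TPM in MV4-11 and 71.7, 75.7 and 81.7 TPM in THP1, and LAMP5, a membrane protein of KMT2A-rearranged blasts, had 280.3 to 305 TPM against 94.0 to 99.6 TPM. Further genes called higher in THP1 were ZNF521, given above, the SUMO protease SENP6 (1.35), the histone demethylase family member JMJD1C (0.98) and PSIP1, which encodes the KMT2A cofactor LEDGF (0.62). MEF2C, CDK6, MYB, LMO2, RUNX2, SATB1, IGF2BP2, ADCY9, DOT1L and MEN1 were present in both lines and not called, between -0.51 for ADCY9 and 0.31 for RUNX2. HOXA2, HOXA3, HOXA4, IGF2BP3, PROM1, HMGA2 and EYA1 stayed under 1 TPM in both.

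The BCL-2 family, which sets the threshold for mitochondrial apoptosis, had 3 genes higher, 4 lower and 8 not called among 15 tested of 17. That is 46.7% called, against 39.1% of all tested genes (20.7% higher and 18.4% lower). Among the genes that protect from apoptosis, MCL1 (chr1:150560895-150579738, GRCh38) had 135, 138 and 136 TPM in THP1 and 80.0, 84.0 and 83.3 TPM in MV4-11 (log2 difference 0.72, SE 0.0558, limma adjusted p = 2.03e-05). BCL2 (60.0 ± 5.83 and 66.8 ± 7.19 TPM, SD, n = 3) and BCL2L1 (13.1 and 14.4 TPM) overlapped between the lines and were not called. BCL2L2 was not called at 0.48. BCL2L10 had 14.2 to 17.4 TPM in MV4-11 and 0 to 0.149 TPM in THP1.

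Among the effectors, BAX had 82.2, 94.3 and 98.0 TPM in MV4-11 and 26.9, 29.5 and 28.3 TPM in THP1, 3.24 times lower, whereas BAK1 was 44.7 against 31.6 TPM in the mean and not called. BOK was listed at 0 in MV4-11 and had 1.42 to 1.46 TPM in THP1. Among the BH3-only genes, BMF (12.7, 13.1 and 14.3 against 1.23, 1.58 and 2.05 TPM) and BBC3, which encodes PUMA (6.26, 7.72 and 9.08 against 1.83, 2.59 and 2.11 TPM), were lower in THP1, and BIK was higher (55.4 to 58.2 against 19.1 to 34.0 TPM). BCL2L11, PMAIP1, BID and BAD were not called, and BCL2A1 and HRK were under 1 TPM in both lines. BAX and BBC3 lie on chromosome 19, where 53% of the tested genes were lower in THP1. MCL1 lies on chromosome 1, where 43.0% were higher.

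Among 14 tested genes downstream of FLT3 and STAT5, 9 were lower and 1 was higher (71.4% called, against 39.1% of all tested genes). Their median was -1.12, and MYC is shared with the fusion list. CCND2, a D-type cyclin, had 19.99, 20.8 and 18.4 TPM in MV4-11 and 0.293, 0.396 and 0.230 TPM in THP1. The kinase PIM1 had 35.7, 40.8 and 55.1 TPM in MV4-11 and 5.78 to 7.39 TPM in THP1. The feedback inhibitors SOCS2, CISH, SOCS1 and SOCS3 were lower by 2.21, 1.81, 1.13 and 1.12 on the log2 scale. CCND2 and SOCS2 lie in runs of 9 and 5 neighbours called lower on chromosome 12. The gene called higher was ID1 (0.62), and its call was lost without MV4-11 replicate 1, THP1 replicate 1 or THP1 replicate 2, at 0.49 to 0.58. PIM2, PIM3, CCND3 and BCL2L1 were not called. STAT5A itself was 3.45 times lower in THP1 (6.24 against 21.6 TPM), and STAT5B was not called (-0.27).

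Output genes of the ERK pathway, which lies downstream of RAS, did not move one way, with 3 higher, 2 lower and 6 not called of 11 tested. That is 45.5% called, against 39.1% of all tested genes. The feedback genes SPRY2 (11.0, 10.3 and 11.0 against 2.30 to 2.84 TPM) and DUSP4 (1.83 to 2.22 against 0.135 to 0.249 TPM) were higher in THP1, and DUSP6 was lower (13.3 to 15.4 against 28.3 to 34.3 TPM). The call for FOSL1 (-0.70) was lost without THP1 replicate 3, at -0.56.

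**Figure D3:**
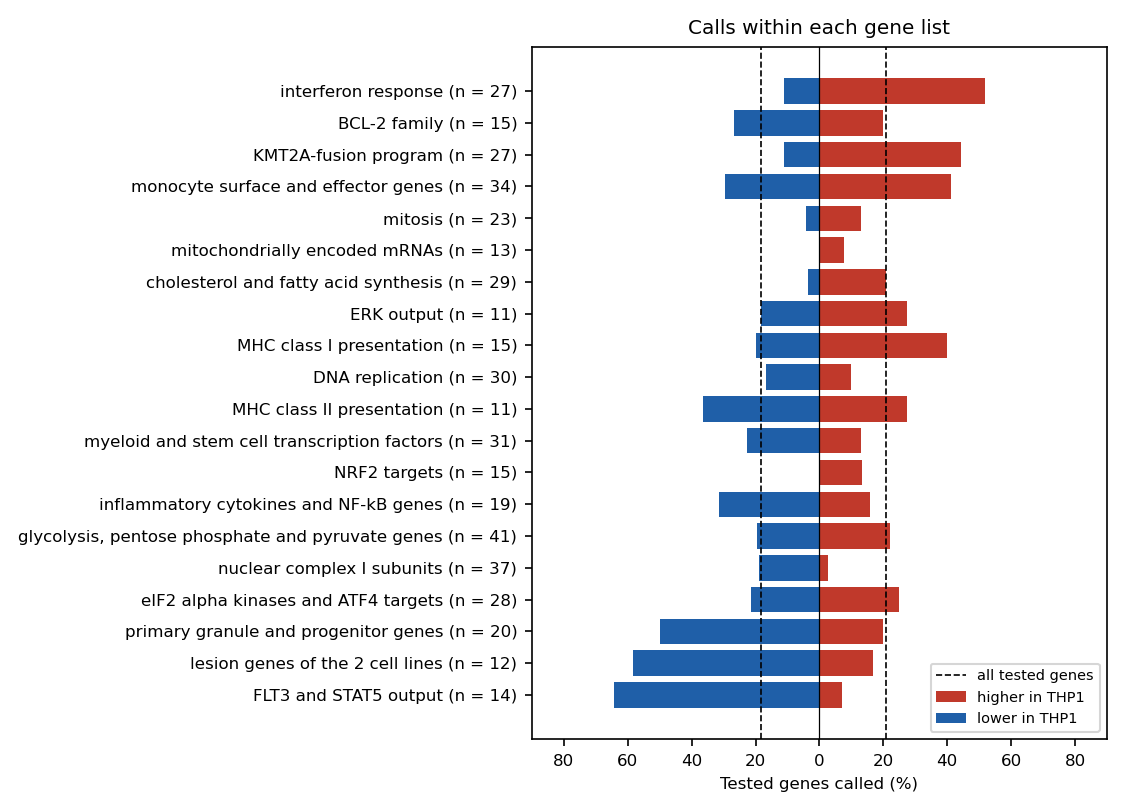
Share of the tested genes of each list that was called higher (right, red) or lower (left, blue) in THP1, in percent, for lists with at least 5 tested genes, ordered by median log2 difference. A list that is not reported here is not drawn. Dashed lines mark the shares over all tested genes (20.7% and 18.4%). Of the lists drawn, the interferon response has the longest red bar and the FLT3 and STAT5 output the longest blue bar.

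The central transcription factors of the myeloid lineage were not called. SPI1 (118 TPM in both means), CEBPA (229 and 225 TPM) and IRF8 (216 and 226 TPM) overlapped between the lines. Of 31 tested factors 4 were higher, 7 lower and 20 not called (35.5% called, against 39.1% of all tested genes). GATA2, a factor of stem and progenitor cells, was higher in THP1 (4.40 to 5.28 against 0.533 to 0.792 TPM), and IRF4 was lower (0.0351 to 0.0833 against 6.68 to 8.18 TPM). RUNX3, RARA, IKZF1 and TCF4 were also lower in THP1, at -1.07, -1.28, -0.75 and -1.71.

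Surface and effector genes of monocytes were split, 14 higher and 10 lower of 34 tested (70.6% called, against 39.1% of all tested genes), with a median of 0.30. The integrin subunits went in opposite directions. ITGAM (CD11b) had 20.7, 22.9 and 31.8 TPM in THP1 and 0.814 to 0.879 TPM in MV4-11, whereas ITGAL (CD11a) had 401, 420.2 and 439.9 TPM in MV4-11 and 29.9 to 32.0 TPM in THP1. MNDA, CD68, LGALS3, ITGAX, FCER1G, CTSS and VCAN were higher in THP1, with CD68, a lysosomal marker of macrophages, at 203, 226 and 316 TPM against 49.6, 56.8 and 62.2 TPM. THP1 replicate 3 had the highest THP1 level for 27 of the 34 genes, against 43.1% of all tested genes, as for FCER1G (187, 196 and 347 TPM against 44.6 to 51.5 TPM), TYROBP (112, 114 and 213 TPM against 167 to 205.5 TPM) and CX3CR1 (13.9, 16.8 and 29.9 TPM against 3.93 to 4.85 TPM). Without that library 14 genes were higher and 13 lower, with a median of 0.33.

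LYZ, the lysozyme gene, had 4935, 4653 and 6690 TPM in MV4-11 and 858, 827 and 1285 TPM in THP1, and CD33, MS4A6A, CD36 and TLR2 were lower in THP1 as well. The calprotectin genes S100A8 and S100A9 were not called (0.28 and 0.31). Of the defining markers of a mature monocyte, CD14 was at 0.394 to 0.547 TPM in MV4-11 and 0.238 to 0.501 TPM in THP1, and FCN1 was at 0 and at most 0.0132 TPM, so neither reached 1 TPM in either line. In bulk RNA, fewer cells that express a gene and less RNA per cell cannot be told apart.

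Of 20 tested genes of primary granules and progenitors, 4 were higher and 10 lower (70% called, against 39.1% of all tested genes), with a median of -0.43. PRTN3 (1379 and 1404 TPM) and AZU1 (0.57) were not called, CTSG and ELANE were higher in THP1 (CTSG 1028, 1093 and 1314 against 261 to 287 TPM), and MS4A3, RNASE3, PRG2, CFD and MPO were lower. MPO was low in both, at 2.03 and 5.35 TPM. The progenitor genes KIT, IL3RA and SOX4 were lower in THP1, with SOX4 at 3.594 to 4.204 against 37.2 to 50.8 TPM, and CD38 was higher, at 25.9 to 38.1 TPM against 0.473, 0.753 and 3.23 TPM. CD34, PROM1 and SPINK2 were at most 0.0213 TPM in any of the 6 libraries.

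Markers of other blood cells were near 0. Of 13 T and NK cell markers only NKG7 entered the test, at 61.1 to 64.3 TPM in MV4-11 and 4.59 to 9.46 TPM in THP1. The others were at most 0.278 TPM, reached by CD3D in MV4-11, with CD3E, CD2, LCK, GNLY and TRAC at most 0.0363 TPM. Of 12 erythroid markers 2 entered (EPOR and KLF1, both lower in THP1), with HBB, HBG2, ALAS2 and AHSP at 0 in all 6 libraries. The summed level of the 8 megakaryocyte markers was 8.19 to 8.92 TPM in MV4-11 and 2.10 to 2.97 TPM in THP1, mostly from ITGA2B in MV4-11, with PF4, PPBP and GP1BA at 0. Of 10 B cell markers 3 entered, PAX5 and CD79B higher and CD79A lower, with no library above the 2.23 TPM of CD79B in THP1, and the CD79B call was lost without THP1 replicate 3, at 0.48.

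Of 27 tested genes of the interferon response 14 were called higher and 3 lower (63% called, against 39.1% of all tested genes), with a median of 0.85. IFI6, an antiapoptotic interferon-induced protein, had 69.6, 70.8 and 103 TPM in THP1 and 2.64, 3.37 and 4.19 TPM in MV4-11, 23.9 times higher. SAMD9L, a growth inhibitory factor, had 21.6 to 23.6 TPM against 2.91 to 3.21 TPM, and OAS3, an activator of RNase L, had 4.93 against 0.0290 TPM in the mean. TRIM22, IFITM1 and IFITM2 were lower in THP1, TRIM22 at 2.77 ± 0.295 against 71.5 ± 2.13 TPM (SD, n = 3), while IFITM3, from the same gene cluster as IFITM1, was higher (76.9 against 19.7 TPM). The IFITM genes are near copies of one another, so their values are uncertain. The central factors STAT2, IRF1, IRF7 and IRF9 were not called.

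Of 15 tested genes of class I antigen presentation 6 were higher and 3 lower, and of 11 of class II 3 were higher and 4 lower. The shares called were 60% and 63.6%, against 39.1% of all tested genes. In the class I pathway the peptide transporter and proteasome genes TAP1, TAP2, PSMB8 and PSMB9 were higher in THP1 (1.38, 1.19, 1.21 and 1.75). HLA-B, HLA-C and HLA-E were lower (-0.91, -0.79 and -1.58) and B2M was not called. TAP1, TAP2, PSMB8 and PSMB9 lie together in a run of 5 neighbours called higher (chr6:32821833-32859851). HLA-E lies in a run of 8 neighbours called lower on the same chromosome. In class II, HLA-DRB1 (79.7, 87.6 and 128 against 19.97 to 20.96 TPM) and HLA-DRB5 were higher and CD74, HLA-DRA and CIITA lower, and the HLA-DRA call was lost without THP1 replicate 2, at -0.91. HLA genes vary in sequence between the lines and share reads with each other, so their values carry that uncertainty. Of 19 tested cytokine and NF-kB genes, 3 were higher (CCL5, IL18, NLRP3) and 6 lower, among them TNF (1.97 to 3.69 against 16.1 to 18.7 TPM) and OSM. That is 47.4% called.

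The genes of the integrated stress response, which the study examined under IACS, were compared at rest. Of the 4 kinases that phosphorylate eIF2 alpha, EIF2AK1 (HRI), EIF2AK3 (PERK) and EIF2AK4 (GCN2) were not called (-0.14, -0.24 and 0.05), and EIF2AK2 (PKR), which is also induced by interferon, was higher in THP1 at 20.1, 21.4 and 22.4 against 3.78 to 4.75 TPM. The mitochondrial stress relays DELE1 and OMA1 were not called (-0.26 and 0.23). ATF4 was not called at -0.40 (136 against 179.6 TPM), and its targets were split: DDIT3, TRIB3, PCK2, PHGDH, VLDLR and ALDH1L2 were higher and ASNS, SLC7A5, PPP1R15A, CEBPG, WARS and ATF5 were lower. Of the 28 tested kinase and target genes 46.4% were called, against 39.1% of all tested genes. PPP1R15A, CEBPG and ATF5 lie on chromosome 19, where 53% of the tested genes were lower in THP1. Of the higher genes, PHGDH lies in a part of chromosome 1 where 50.5% of the tested genes were higher. VLDLR lies in a run of 8 neighbours called higher on chromosome 9. PHGDH, the first enzyme of serine synthesis, had 11.95, 12.9 and 14.2 TPM in THP1 and 1.64 to 2.11 TPM in MV4-11.

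Of 37 nuclear genes of complex I, the target of IACS, 29 were not called, 7 were lower and 1 was higher in THP1, with a median of -0.13. That is 21.6% called, against 39.1% of all tested genes. Of the 7 lower genes, NDUFA3, NDUFA11, NDUFA13, NDUFB7 and NDUFS7 lie on chromosome 19. Of the 13 mitochondrially encoded mRNAs, only MT-ND3 was called (0.94), and their summed level was 12690 to 15980 TPM in MV4-11 and 14790 to 17700 TPM in THP1.

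Glycolysis and its branches had 9 genes higher and 8 lower of 41, near the shares over all tested genes (20.7% and 18.4%). The glucose and fructose transporters SLC2A1 (78.8, 86.8 and 83.3 against 29.7 to 34.6 TPM) and SLC2A5 were higher in THP1, SLC2A3 and HK2 were lower (HK2 10.6 to 13.4 against 40.7 to 42.5 TPM), and GAPDH, TPI1 and GPI were lower by 1.33, 1.29 and 1.32. GAPDH and TPI1 lie in runs of neighbours called lower on chromosome 12, and GPI lies on chromosome 19, where 53% of the tested genes were lower. LDHA, PKM, PGK1 and ENO1 were not called. Of 29 genes of sterol and fatty acid synthesis 6 were higher, near the share over all tested genes, and 1 was lower. THP1 replicate 3 had the highest THP1 level for 27 of these 29 genes, against 43.1% of all tested genes. Without that library 3 were higher and 1 lower, and the same held without MV4-11 replicate 3. Leaving out any other library gave 5 to 8 higher. Of 15 NRF2 targets 2 were higher, ME1 at 3.48 and GCLM at 0.85, and none was lower. Of 30 replication genes 22 were not called, with PCNA lower (129 to 134 against 381 to 407 TPM) and MCM3 higher in THP1. Of 23 mitotic genes 19 were not called, with CDC20 the furthest apart (522, 574 and 626 against 111 to 123 TPM). The shares called of the NRF2, replication and mitotic genes were 13.3%, 26.7% and 17.4%, against 39.1% of all tested genes.

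The most abundant genes called were ACTB, CAP1 and YBX1 in THP1 and RPPH1, LYZ and RPL13A in MV4-11. CAP1, which recycles actin monomers, had 4032, 4119 and 5255 TPM in THP1 and 228 to 239.6 TPM in MV4-11, and YBX1, an RNA-binding protein, had 2318, 2334 and 2521 against 525 to 594 TPM. ACTB had 4503, 5083 and 6512 against 3065 to 3455 TPM, and its call was lost without THP1 replicate 3, at 0.56. RPPH1, the RNA of RNase P, varied widely between libraries (9587 to 15370 against 20010 to 31520 TPM), and its call was lost without MV4-11 replicate 1 or 3 or THP1 replicate 1 or 2, at -1.01 to -1.11. RPL13A encodes a ribosomal protein and has processed copies in the genome that share its reads.

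Called genes were not spread evenly over the chromosomes, and the counts of the gene lists above were not adjusted for position. On chromosome 19, 53% of 955 tested genes were lower and 9.63% higher in THP1, with a median of -0.63, against 18.2% lower and 20.9% higher over the 12729 genes placed on the autosomes and X. On chromosome 1, 43.0% of 1337 genes were higher and 7.03% lower (median 0.48), and on chromosome 6, 39.0% of 670 were higher (median 0.40). On chromosome 17, 32.9% of 769 genes were lower (median -0.27). On chromosomes 2, 3, 4, 5, 7, 10, 11, 13, 14, 15, 18 and 22 the median was within 0.1 of 0.

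Within chromosomes the differences formed blocks, whose ends were set here after the values were seen. On chromosome 1 the 362 tested genes before BMP8A had a median of -0.06. The next 56 genes, from BMP8A to ST3GAL3 (chr1:39491636-43931165, GRCh38), had a median of 2.26, and 54 of them were higher in THP1 and none lower. The 919 genes after them had a median of 0.60, with 50.5% higher and 5.11% lower. The block of 56 held the longest run of neighbours all called one way, 31 genes from BMP8A to FOXJ3 with differences from 0.60 to 5.02 and a median of 3.23. Among its members were CAP1, the lysosomal thioesterase PPT1 (1365 to 1961 against 84.5 to 94.5 TPM) and MYCL (15.01 to 15.6 against 2.16 to 2.59 TPM), and the block also held YBX1, SLC2A1, CDC20 and the receptor phosphatase PTPRF.

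On chromosome 17 the first 212 tested genes, up to SNORD3A, had a median of -1.01, with 76.9% lower and 2.83% higher, and the 557 genes after them a median of -0.05. The longest run of lower genes was there, 26 genes from PIK3R6 to CENPV (chr17:8802722-16353656, median -1.48), among them MAP2K4, NCOR1 and COX10. A run of 13 genes followed it (TRPV2 to RAI1, median -1.02), and a run of 14 genes (ZNF594 to MED31, median -1.05) lay before it, with shorter runs of lower genes in between.

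On chromosome 6 the 144 genes up to ZSCAN31 had a median of -0.86, with 70.8% lower, and included a run of 13 histone and zinc finger genes from HIST1H3J to ZSCAN31. The 263 genes from SLC17A5 onward had a median of 0.68, with 57.4% higher and 2.28% lower. Histone genes of that cluster are near copies of one another, and their values carry the uncertainty of shared reads. The second longest run of higher genes, PCDHAC2 to PCDHB14 on chromosome 5, held 13 protocadherin genes, none of which reached 1 TPM in both lines, and 12 genes from ZMYND12 to SLC2A1 on chromosome 1 came next with 2 other runs of 12. In all there were 57 runs of at least 5 neighbours higher (403 genes) and 68 runs lower (486 genes). Copy number was not measured in these files, and its part in the blocks was not tested.

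**Figure D4:**
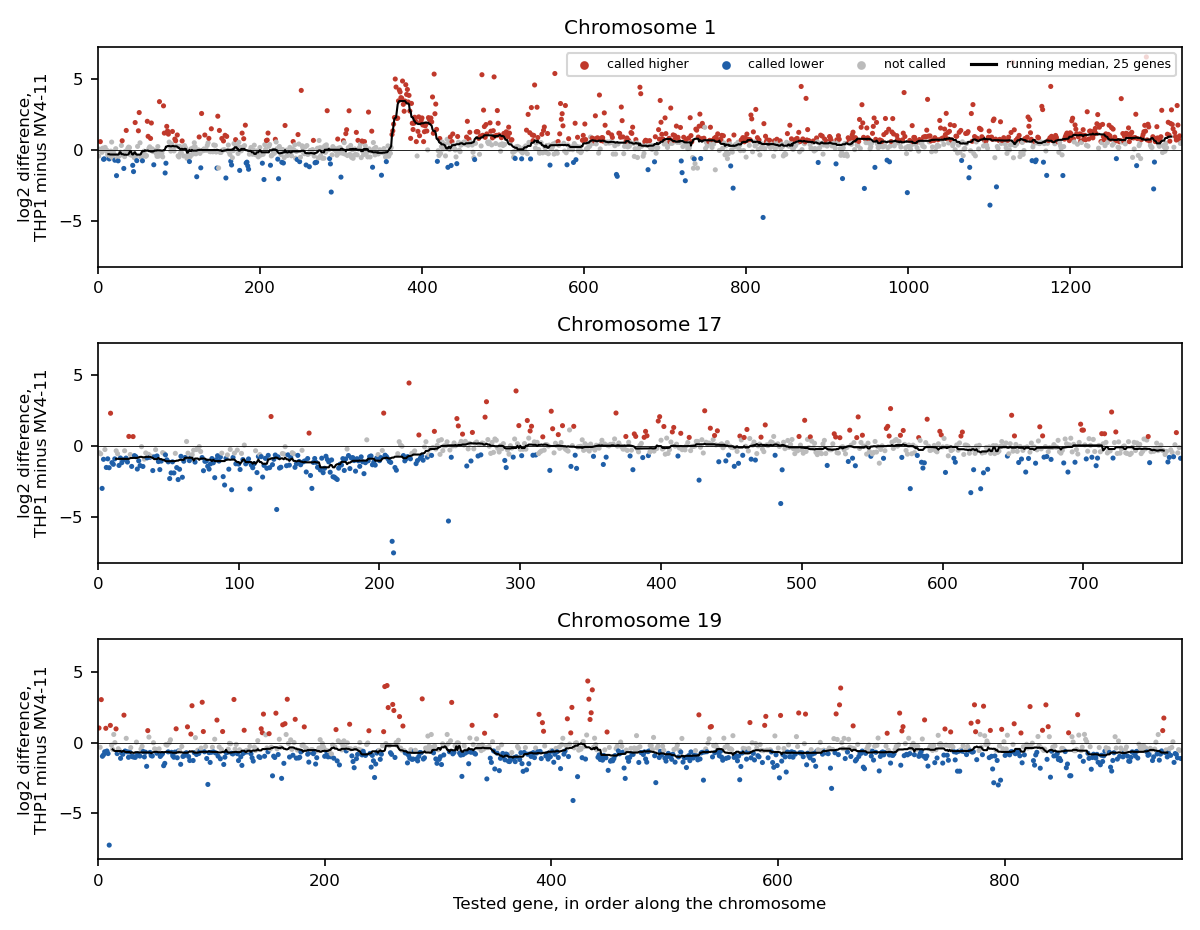
log2 difference of each tested gene, THP1 minus MV4-11, in order along chromosomes 1, 17 and 19 (x axis, rank of the gene), with a running median over 25 genes in black. Chromosome 1 shows a peak of 56 genes at a median of 2.26 followed by a raised level to its end, chromosome 17 a lowered level over its first 212 genes, and chromosome 19 a lowered level over most of its length.

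GC content of the transcripts moved with the difference between the lines. Over 12762 genes with a transcript sequence (85.9%), the quintile with the lowest GC had a median of 0.15 and the quintile with the highest a median of -0.23, and the quintile with the shortest transcripts had a median of -0.14 and that with the longest 0.12. On chromosome 19 the median lay between -0.53 and -0.66 in every quintile of GC, and on chromosome 1 between 0.18 and 0.60.

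The differences between the lines were also measured in the treated libraries, which share no sample with the DMSO libraries. At 8 h of IACS, 3093 of 14880 genes (20.8%) were higher and 2777 (18.7%) lower in THP1, and at 24 h 3223 of 15042 (21.4%) were higher and 2937 (19.5%) lower. Of the 3075 genes higher with DMSO, 2686 were also called higher at 8 h (87.3% of the DMSO list and 86.8% of the 8 h list) and 2677 at 24 h (87.1% and 83.1%). Of the 2736 lower with DMSO, 2261 were lower at 8 h (82.6% and 81.4%) and 2273 at 24 h (83.1% and 77.4%). Between 1 and 2 genes per list were called in the opposite direction.

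Of the 17 interferon genes called with DMSO 16 kept their call at each time. Of the 13 eIF2 alpha kinase and ATF4 target genes called with DMSO, 11 kept it at 8 h and 8 at 24 h. SLC7A5 and ASNS, at -1.27 and -1.21 with DMSO, were at -0.52 and -0.21 at 24 h and not called there, although their change in the difference did not pass the test of the interaction (adjusted p = 0.274 and 0.156 by limma).

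**Figure D5:**
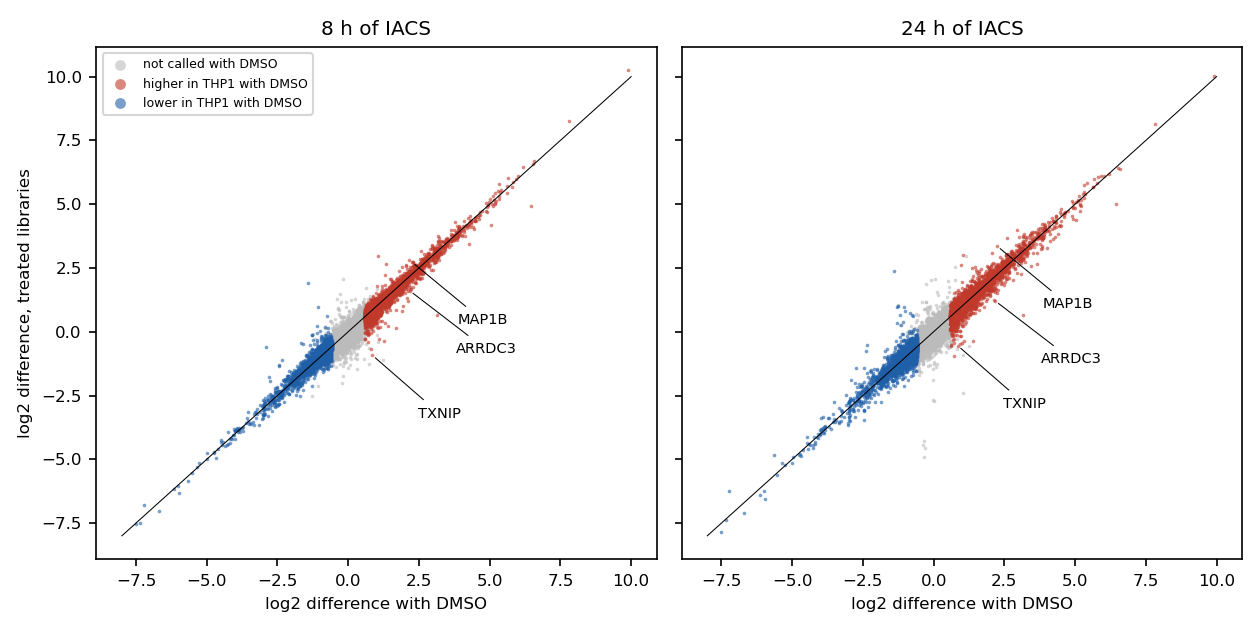
log2 difference, THP1 minus MV4-11, in the DMSO libraries (x axis) against the 8 h (left) and 24 h (right) IACS libraries (y axis), 1 point per gene, coloured by the call with DMSO. The line marks equal differences. Most called genes lie along it, and ARRDC3, MAP1B and TXNIP are marked.

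Whether a difference between the lines changed with IACS was tested as an interaction over all 18 libraries and 15412 genes. The same DMSO libraries served for 8 h and 24 h, and their labels give no time. A change with IACS therefore cannot be told apart from a change with time in culture. No gene passed at 8 h (0%, smallest limma adjusted p = 0.0729), where 889 genes had an unadjusted p under 0.05, and 2 genes passed at 24 h (0.013%), where 1863 had an unadjusted p under 0.05. One was ARRDC3, an arrestin-related adaptor of membrane protein turnover, whose difference of 2.18 with DMSO was 1.21 at 24 h (change -0.96, SE 0.113, limma adjusted p = 0.00525). The other was MAP1B, a microtubule-associated protein near 0 in MV4-11, whose difference of 2.22 was 3.37 at 24 h (change 1.15, SE 0.171, limma adjusted p = 0.049). Both calls were lost with TPM as deposited (limma adjusted p = 0.184 for ARRDC3 and 0.233 for MAP1B), and that of MAP1B also at a pseudocount of 0.1 (limma adjusted p = 0.0681). With the replicate number as a block both were called, among 35 genes at 24 h. The gene with the smallest p at 8 h was TXNIP, an arrestin-like inhibitor of glucose uptake, which was higher in THP1 with DMSO (168, 172 and 259 against 96.7 to 131 TPM on the scale of all 18 libraries) and lower at 8 h (29.1 to 42.9 against 61.8 to 68.4 TPM). Its change of -1.77 passed with the replicate block (limma adjusted p = 0.000201), and a change of -1.99 passed with TPM as deposited (limma adjusted p = 5.47e-05).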

How the data were processed

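RNA was extracted from 3 independent cultures per group and sequenced from TruSeq libraries. The authors trimmed the reads, aligned them to GRCh38 with CLC Genomics Workbench and deposited 1 table of TPM values per gene and library, with no counts. The 6 DMSO columns were rescaled by the median of ratios, and genes whose deposited mean reached 1 TPM in either line were tested with limma 3.58.1 (lmFit and eBayes with trend, R 4.3.3) on log2(rescaled TPM + 1). The Kruskal-Wallis test that the study used was an alternative, since 3 against 3 samples limit it. Genes were called beyond a 1.5-fold change, the limit of the study, at a false discovery rate under 0.05 (Benjamini-Hochberg). Interactions were fitted over all 18 libraries rescaled together. Approximate reads were found from the most frequent value of TPM times exon length among low genes in each library, at which 77.2% to 78.7% of low values were whole within 0.02. They served for depth and for an alternative fit with limma voom, which was chosen after seeing the data. No per-sample column of the table was left unused because of an unknown sample.

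Symbols were matched to GENCODE release 44 (28798 of 45372, 580 by an older symbol), and promoters are from RefSeq. Because TPM values depend on the annotation and share reads among near copies, values of repeated genes are uncertain. Statistics were tested on simulated data. The comparison, gene lists and named genes were chosen with earlier results of these data known. Named genes were the 12 largest differences per direction with at least 20 TPM and no overlap (small noncoding RNAs and pseudogenes left out), the 3 most abundant called genes per direction, every lesion, KMT2A-fusion and BCL-2 family gene, up to 2 called genes per direction of each other list, and the longest runs. Further members of a list that are named were chosen after their values were seen. KIF23, OAS1 and SOD2 were not analysed here. A few genes of these lists, and 1 list, are not reported here. Alternatives covered the pseudocount, scaling, filter, fold rule, test, replicate block and each library left out.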

Additional observations from a re-analysis of the deposited data

Results flagged for a closer look

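Only groups of 3 libraries were available, so that no group was screened for a single outlying library. At 24 h of IACS, 2 genes had a difference between the lines that changed past the threshold of the interaction test. With TPM as deposited neither passed (limma adjusted p = 0.184 for ARRDC3 and 0.233 for MAP1B), and MAP1B did not at a pseudocount of 0.1 (limma adjusted p = 0.0681). The difference of ARRDC3 fell by 0.96 on the log2 scale: its mean went from 6.15 ± 0.722 TPM with DMSO to 11.7 ± 0.243 TPM in MV4-11 and from 31.3 ± 1.75 to 28.5 ± 1.68 TPM in THP1 (SD, n = 3, rescaled over 18 libraries). The difference of MAP1B grew by 1.15: its mean went from 3.73 ± 0.827 to 9.44 ± 1.75 TPM in THP1 and stayed at or under 0.00483 TPM in MV4-11. The DMSO libraries are shared by the 8 h and 24 h tests and carry no time in their labels, so IACS and time in culture cannot be told apart.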

How the results depend on the processing

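The numbers of genes called higher in THP1 and genes called lower in THP1 (3075 and 2736) stayed within 1.5 times under 0.1 as pseudocount, TPM as deposited, scaling without the 5 noncoding RNAs or without mitochondrial genes, no filter, at least 1 TPM over the 6 libraries, no variance trend, all 18 libraries in 1 fit, unadjusted p, the Kruskal-Wallis test and limma voom on approximate reads (3001 and 2536, over 12762 genes). They moved where the rule was stricter by construction: 1394 and 1581 at a filter of 10 TPM, 1830 higher at 1 TPM in both lines, 1775 and 1270 at a log2 threshold of 1, and 2036 and 1501 with limma treat. Leaving out each library gave 3032 to 3155 higher and 2647 to 2843 lower. The Kruskal-Wallis p was not adjusted and fell under 0.05 only where the libraries of the lines did not overlap. That held for 3053 of the 3075 and 2706 of the 2736 called genes, so this alternative could hardly lower the counts. Without the 5 noncoding RNAs, 59.3% of calls were higher against 52.9%. By replicate number the correlations of deviations were 0.135, -0.0188 and 0.0693, and the replicate block gave 3078 and 2733. Replicates 1 and 2 were still the closest pair in every group of the series. Whether libraries of the same number shared a batch was not tested. The interaction counts moved more: at 8 h 1 gene, TXNIP, passed with the replicate block (adjusted p = 0.000201 by limma) and 1 with TPM as deposited (adjusted p = 5.47e-05 by limma), and 155 by unadjusted p. At 24 h 35 passed with the replicate block, 1 with a pseudocount of 0.1, 1 with TPM as deposited and 333 by unadjusted p; the cause was not tested. Of 149 named genes none changed direction where called, and 6 lost a call for a reason other than a stricter fold rule. List medians near 0 (transcription factors, class II, cytokines, NRF2, replication) changed sign under at least 1 alternative. Depth limits values near 0.1 TPM, which rest on about 1 read per kb.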
